A study of Mus musculus with 2 samples.

Results

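The 9 genes that encode the subunits of AMPA and kainate receptors were followed in the embryonic mouse hindbrain. They are Gria1 to Gria4 for AMPA receptors (4 genes) and Grik1 to Grik5 for kainate receptors (5 genes), chosen by symbol from the 43346 Ensembl genes of the tables, and every gene was found. The tissue was hindbrain of healthy strain B6NCrl embryos at embryonic day 13.5, with male and female embryos pooled, and no transgene or treatment is labelled. Total RNA longer than 200 nt was used at 10 ng per library. The 2 libraries are labelled biological replicates 1 and 2 of a single group, so no contrast between conditions exists, and they share a donor label, so that the spread between them may be technical.

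AMPA and kainate receptors are cation channels opened by glutamate, the main excitatory transmitter of the brain, and each is assembled from several subunits. Gria2 sets whether an AMPA receptor passes calcium, because its transcripts are edited in the pore loop from a glutamine to an arginine codon. Every AMPA subunit is further spliced with either of a pair of neighbouring exons, named flip and flop, that code part of the ligand-binding domain and alter how fast the channel desensitizes; in rodents flip is known as the form of the early brain. Among kainate subunits, Grik1 to Grik3 form channels by themselves and bind kainate with lower affinity, while Grik4 and Grik5 bind it more tightly and need a partner from the other group.

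The flip and flop exons are printed first because the split of transcripts below rests on them. Each has 115 bases. Capitals mark the bases at which the flip and flop exons of the same gene differ, and the letters come from GENCODE M21 transcripts on GRCm38, read along the strand of the gene.
Gria1 flip: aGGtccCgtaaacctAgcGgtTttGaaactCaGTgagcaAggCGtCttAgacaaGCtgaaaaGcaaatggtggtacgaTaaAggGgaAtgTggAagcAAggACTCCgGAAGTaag
Gria1 flop: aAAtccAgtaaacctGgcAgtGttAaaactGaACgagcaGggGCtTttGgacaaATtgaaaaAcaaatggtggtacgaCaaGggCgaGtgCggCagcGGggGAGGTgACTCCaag
Gria2 flip: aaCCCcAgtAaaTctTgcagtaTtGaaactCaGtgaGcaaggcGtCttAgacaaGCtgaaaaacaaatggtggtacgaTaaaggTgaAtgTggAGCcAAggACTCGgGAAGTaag
Gria2 flop: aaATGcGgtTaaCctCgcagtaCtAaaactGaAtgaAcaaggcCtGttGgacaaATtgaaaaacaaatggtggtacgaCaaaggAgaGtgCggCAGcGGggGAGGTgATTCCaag
Gria3 flip: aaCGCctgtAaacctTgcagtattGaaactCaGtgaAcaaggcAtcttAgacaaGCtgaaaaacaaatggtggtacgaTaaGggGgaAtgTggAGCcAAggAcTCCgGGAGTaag
Gria3 flop: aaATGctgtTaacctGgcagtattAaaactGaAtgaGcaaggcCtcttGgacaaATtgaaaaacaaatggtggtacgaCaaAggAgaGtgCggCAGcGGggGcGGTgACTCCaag
Gria4 flip: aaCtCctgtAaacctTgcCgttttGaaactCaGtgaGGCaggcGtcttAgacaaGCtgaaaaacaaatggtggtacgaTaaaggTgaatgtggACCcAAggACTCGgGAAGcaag
Gria4 flop: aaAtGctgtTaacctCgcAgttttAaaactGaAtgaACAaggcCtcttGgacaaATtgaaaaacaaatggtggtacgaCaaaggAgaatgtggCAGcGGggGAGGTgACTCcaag

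In Gria1 these exons lie on the plus strand at chr11:57310608-57310722 for flip and chr11:57309769-57309883 for flop. Those of Gria2 lie on the minus strand at chr3:80690404-80690518 and chr3:80691320-80691434. Those of Gria3 are on the plus strand at chrX:41669501-41669615 and chrX:41654810-41654924, and those of Gria4 on the minus strand at chr9:4427030-4427144 and chr9:4432773-4432887. The flop exon comes first along the transcript in each of the 4 genes. Within a gene the pair differed at 36 bases in Gria1, 36 in Gria2, 32 in Gria3 and 31 in Gria4, and at 8, 9, 9 and 10 of the 38 whole codons' residues in that order of genes. Between genes the exons were closer, with 87.8% to 92.2% identical bases among flip exons and 87.8% to 94.8% among flop exons.

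All 9 subunit genes reached 1 TPM (the deposited level per transcript length, scaled to the same total in each library) in both libraries, against 62.2% of protein-coding genes and 35.4% of all Ensembl genes. The order of levels had Gria2 first and Grik3 last. AMPA subunits together had 163.6 TPM in replicate 1 and 160.3 in replicate 2, and kainate subunits 50.6 and 50.9. On the log2(TPM + 1) scale the AMPA sum lay above the kainate sum by 1.66 ± 0.03 (SD, n = 2), and by 0.87 when protein-coding transcripts alone were summed (Grik2 kept whole). In bulk tissue, fewer cells of a type and less RNA per cell cannot be told apart.

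Gria2 (ENSMUSG00000033981.10, chromosome 3) had 105.55 TPM in replicate 1 and 103.48 in replicate 2, on 8846 and 10469 estimated counts. It was 4.32 times as high as the next gene, Gria4, and held 64.5% ± 0.032 of the AMPA TPM (SD, n = 2). Among the 15342 genes that reached 1 TPM in both libraries it stood at percentile 89.4. Gria4 (ENSMUSG00000025892.11, chromosome 9), an AMPA subunit with fast kinetics in the adult brain stem, had 25.9 and 22.5 TPM on 1793 and 1866 counts. Gria1 (ENSMUSG00000020524.12, chromosome 11), which in the forebrain carries activity-dependent receptor insertion, had 21.3 and 23.6 TPM on 2225 and 2631 counts. Gria3 (ENSMUSG00000001986.12, X chromosome) was the lowest AMPA gene, with 10.9 and 10.7 TPM on 1025 and 1223 counts. The shares of the AMPA sum were 14.9% ± 1.26 for Gria4, 13.9% ± 1.21 for Gria1 and 6.66% ± 0.0179 for Gria3 (SD, n = 2).

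Among kainate genes, Grik2 (ENSMUSG00000056073.10, chromosome 10), a pore-forming low-affinity subunit, was the highest, with 20.2 TPM in replicate 1 and 21.7 in replicate 2 on 1812 and 2318 counts. Grik1 (ENSMUSG00000022935.10, chromosome 16), the low-affinity subunit known from sensory neurons, had 12.05 and 11.84 TPM on 646 and 753 counts. Grik3 (ENSMUSG00000001985.9, chromosome 4), whose receptors need high glutamate, was the lowest of all 9 genes at 3.30 and 3.21 TPM on 604 and 695 counts. Its estimated counts were close to those of Grik1, and its transcript is longer, 8973 bases against a mean of 2695 and 2706 bases for Grik1 in the libraries. The high-affinity subunit Grik5 (ENSMUSG00000003378.8, chromosome 7) had 7.97 and 8.12 TPM on 615 and 740 counts. Grik4 (ENSMUSG00000032017.10, chromosome 9), the other high-affinity subunit, had 7.04 and 5.94 TPM on 580 and 582 counts.

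Low-affinity subunits summed to 35.6 TPM in replicate 1 and 36.8 in replicate 2, and high-affinity subunits to 15.0 and 14.1. The difference was 1.26 ± 0.10 on the log2(TPM + 1) scale (SD, n = 2). Grik2 held 41.4% ± 1.96 of the kainate TPM, Grik1 23.6% ± 0.378, Grik5 15.9% ± 0.152, Grik4 12.8% ± 1.58 and Grik3 6.42% ± 0.149 (SD, n = 2). Grik3 stood at percentile 17.3 of the genes at 1 TPM or more, so the 9 genes ran from the lower to the upper part of that range.

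**Figure D1:**
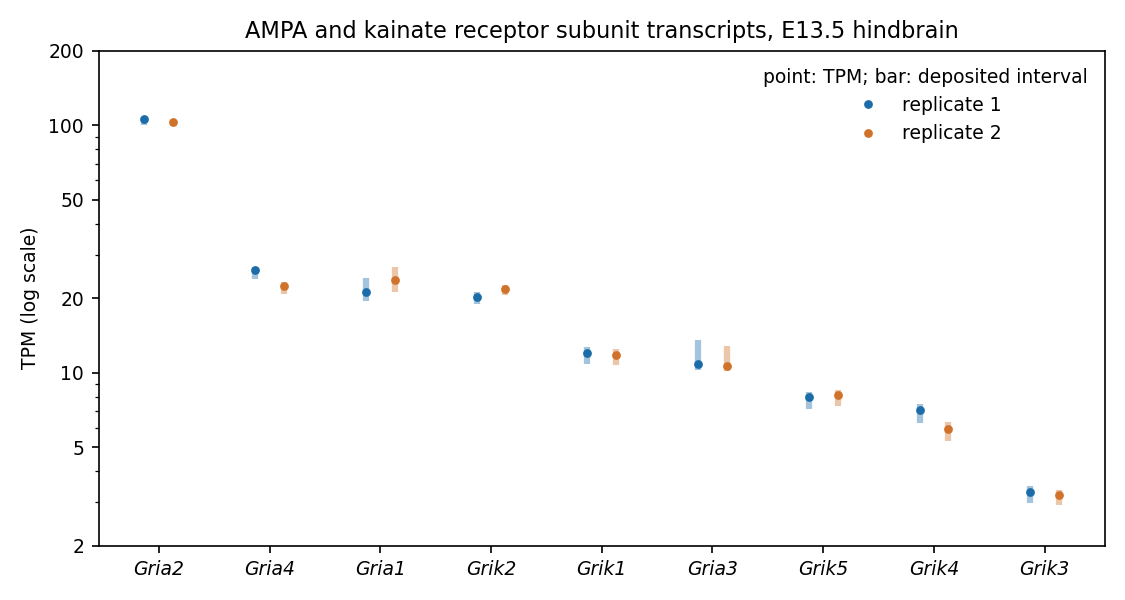
TPM (log axis) of the 9 subunit genes in replicate 1 (blue) and replicate 2 (orange), in order of the mean; points are the deposited TPM and bars the deposited credibility interval. Gria2 stands apart at 105.55 and 103.48 TPM, while Gria4, Gria1 and Grik2 lie between 20.2 and 25.9.

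Not every step of this order was larger than the spread. The libraries of Gria4 overlapped those of Gria1, and those of Gria1 overlapped those of Grik2, so these neighbours did not differ beyond their spread. Grik1 lay above Gria3 in both libraries, with a mean of 11.9 against 10.8 TPM, while the deposited intervals overlapped in each library. Grik5 lay above Grik4 in both libraries, and their intervals overlapped in replicate 1 but not in replicate 2. At the other steps, Gria2 to Gria4, Grik2 to Grik1, Gria3 to Grik5 and Grik4 to Grik3, neither the libraries nor the intervals overlapped. No test of these steps was run.

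Gria1's place depended on a fragment. Gria1-203, an annotated fragment of 287 bases at the 5′ end, was given 0.96 TPM on 3.73 counts in replicate 1 and 3.85 TPM on 17.6 counts in replicate 2. Without it Gria1 had 20.3 and 19.8 TPM, with replicate 1 now the higher library and both below the lower library of Gria4.

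The transcript tables split each gene by annotated transcript, and Gria2 was mostly assigned to transcripts that do not code for the full receptor. Transcripts of the retained-intron class held 55.4% ± 0.530 of Gria2 TPM, a transcript of the nonsense-mediated decay class 7.36% ± 0.198 and the 2 protein-coding transcripts 37.2% ± 0.721 (SD, n = 2). The most abundant was Gria2-206 with 44.54 TPM in replicate 1 and 44.64 in replicate 2, above the coding flip transcript Gria2-202 with 31.88 and 31.53. Deposited intervals of Gria2-206 ran from 40.7 to 45.6 and from 41.1 to 45.4 TPM, and those of Gria2-202 from 28.1 to 33.5 and from 27.8 to 33.0, so they were disjoint in both libraries.

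Gria2-206 joins exons 1 to 13 of the 16 exons of the receptor transcript, with a shorter first exon, and then runs on into intron 13 for 764 of its 850 bases, ending 86 bases before the flop exon. Its last exon lies at chr3:80691521-80692532 on the minus strand. Its exit from the coding transcript is at chr3:80692255-80692314, with exon 13 in lower case and the intron in capitals.
Gria2-206: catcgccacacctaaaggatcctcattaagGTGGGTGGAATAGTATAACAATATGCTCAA

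The capitals are the first of the 764 intronic bases of this exon. Estimated counts assigned to Gria2-206 were 3094 and 3663 in replicates 1 and 2, against 2586 and 3020 for Gria2-202. A second retained-intron transcript, Gria2-204, had 9.48 and 9.76 TPM. It keeps the 440 bases of intron 10 and runs 2249 bases into intron 11, which has 4231 bases and follows the exon with the edited pore codon. Gria2-203, of the decay class, contains the flip and the flop exon together and had 7.92 and 7.47 TPM. In these tables unspliced precursor and finished transcripts with a kept intron cannot be told apart.

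**Figure D2:**
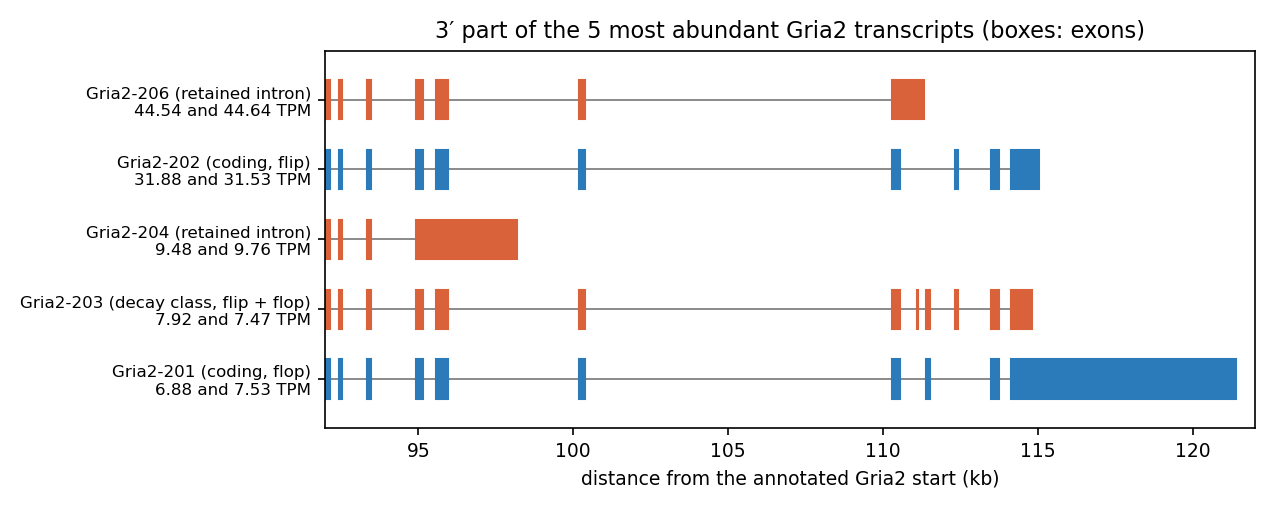
Exons (boxes) of the 5 most abundant Gria2 transcripts over the 3′ part of the gene, by distance from the annotated start in kb; orange marks retained-intron and decay classes, blue the protein-coding transcripts, and the labels give TPM in replicates 1 and 2. Gria2-206 stops before the exons at which Gria2-202 and Gria2-201 differ.

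Set beside 7644 protein-coding genes at 1 TPM or more that have an annotated transcript of another class, Gria2 had 62.8% of its TPM in such classes, against a median of 14.6%, which is percentile 92.0. Gria3 had 21.3%, at percentile 60.6, through the retained-intron transcripts Gria3-205 (0.81 and 0.93 TPM) and Gria3-208 (1.03 and 0.55) and the decay-class Gria3-206 (0 and 0.93), and Gria1 1.25%, at percentile 11.8. For Gria4 and Grik1, Grik3, Grik4 and Grik5 the tables held protein-coding transcripts alone. None of the 6 Grik2 transcripts that carried TPM was found in GENCODE M21, so their class was not used here.

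**Figure D3:**
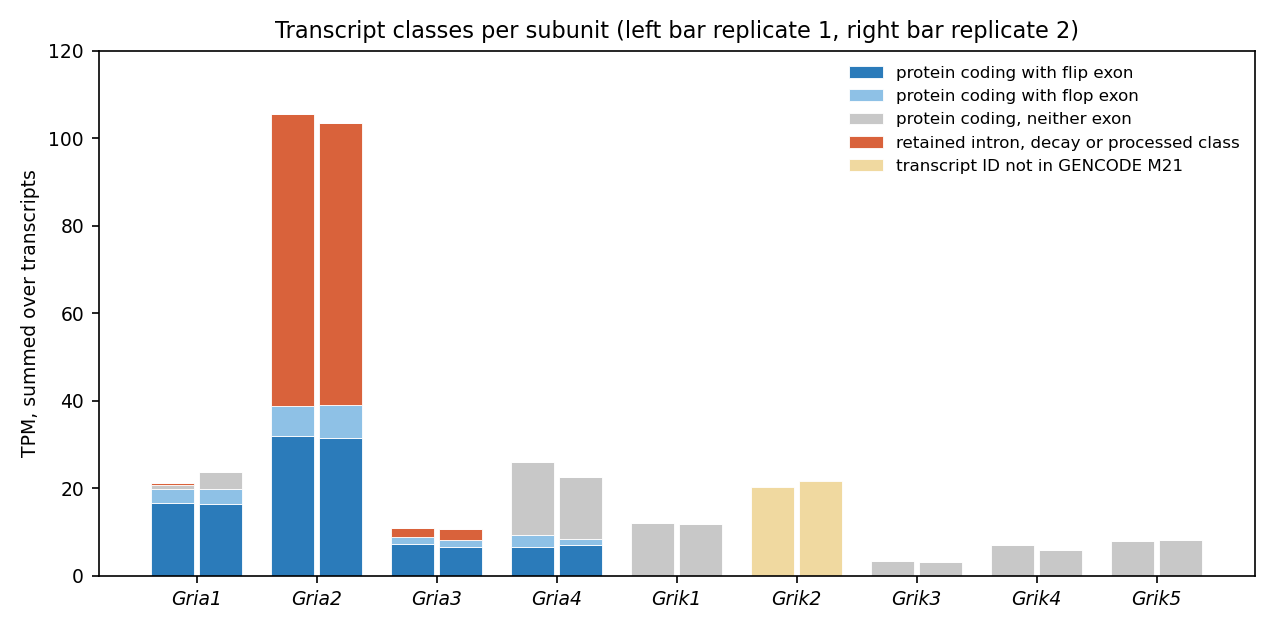
TPM per subunit gene, stacked by transcript class, with replicate 1 as the left and replicate 2 as the right bar. The orange part, 66.8 and 64.4 TPM, makes up most of Gria2, and transcripts without flip or flop exon (grey) make up most of Gria4.

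Gria4 also had most of its TPM outside the full receptor transcript. Gria4-203, annotated as protein coding, had 16.6 TPM in replicate 1 and 14.1 in replicate 2, or 63.4% ± 1.05 of the gene (SD, n = 2). It has 11 exons and 2338 bases and holds neither the pore nor the flip or flop exons; its last exon, of 590 bases at chr9:4478263-4478852 on the minus strand, is absent from Gria4-201 and Gria4-202. The first 60 bases of that exon, at chr9:4478793-4478852, are given in capitals as the bases that mark this short form.
Gria4-203: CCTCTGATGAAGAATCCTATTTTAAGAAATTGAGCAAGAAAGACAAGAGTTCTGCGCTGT

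The short form took 768 and 770 estimated counts in replicates 1 and 2. Its shorter length raises its TPM relative to the receptor transcripts, since the flip form Gria4-202 had 724 and 916 counts and 6.56 and 7.03 TPM. Intervals of Gria4-203 were 14.7 to 17.7 and 12.4 to 15.1 TPM, above those of both receptor transcripts in each library.

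When protein-coding transcripts with a flip or flop exon were summed, the AMPA family had 76.7 TPM in replicate 1 and 75.4 in replicate 2. Gria2 was still first, with 38.76 and 39.06 TPM and 51.2% ± 0.879 of that sum. Gria1 followed with 19.79 and 19.76 TPM and 26.0% ± 0.277. Gria4 had 9.29 and 8.41 TPM and 11.6% ± 0.682, and Gria3 8.81 and 8.16 TPM and 11.2% ± 0.474 (SD, n = 2). Gria4 and Gria3 overlapped on this measure, whereas Gria1 lay above both in each library.

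The deposited TPM of flip was above that of flop in all 4 AMPA genes and in both libraries, though the intervals of the Gria4 forms overlapped in replicate 1. In Gria1 the flip transcripts had 16.7 TPM in replicate 1 and 16.4 in replicate 2, against 3.08 and 3.39 for flop, a flip share of 83.6% ± 1.13 (SD, n = 2). In Gria2 flip had 31.9 and 31.5 TPM and flop 6.88 and 7.53, a flip share of 81.5% ± 1.08 (SD, n = 2). In Gria3 flip had 7.31 and 6.57 TPM and flop 1.5 and 1.59, a flip share of 81.7% ± 1.74 (SD, n = 2). The deposited intervals of its flop transcript Gria3-202 were wide, 0.044 to 1.98 TPM in replicate 1 and 0.067 to 2.39 in replicate 2. The SD of the share does not include this estimation error.

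Gria4 had 6.56 and 7.03 TPM for flip and 2.73 and 1.38 for flop. Its flip share was 70.6% in replicate 1 and 83.6% in replicate 2 (77.1% ± 9.18, SD, n = 2), a range that overlapped those of Gria1, Gria2 and Gria3. The flop transcript Gria4-201 rested on 302 and 180 counts with intervals of 1.02 to 4.55 and 0.431 to 2.46 TPM, which overlap.

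How far the split rests on the exons differed between genes. Outside the exon pair, the Gria1 flip transcript had 147 bases absent from its flop partner, and the flop transcript none. The Gria4 transcripts were equal in deposited length, at 5441 bases each. In M21, where the flip transcript has 5352 bases, flip had 3 bases and flop 92 outside the pair that the other lacks. These M21 bases may therefore not hold for the Gria4 transcripts that were quantified. The Gria2 flop transcript has 10371 bases against 4026 for flip and holds 6345 bases outside the exon pair that the flip transcript lacks. By estimated counts, with no division by transcript length, the Gria2 flip share was 62.7%. The Gria3 flip transcript has 2241 bases of its own outside the pair, and counting the retained-intron transcript Gria3-208, which contains the flop sequence, as flop gave 74.9% for Gria3.

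**Figure D4:**
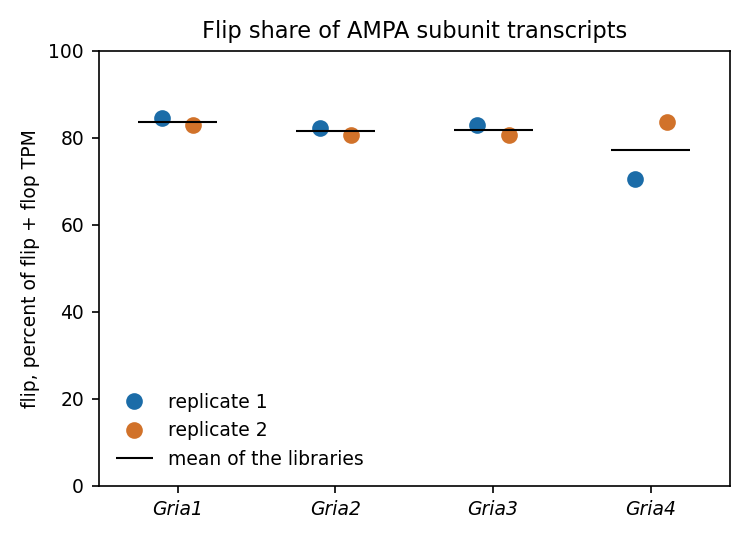
Flip transcripts as a percent of flip plus flop TPM for Gria1 to Gria4, 1 point per library, with a line at the mean of the libraries. Every point lies at 70.6% or higher; Gria4 has the widest gap between libraries, 70.6% in replicate 1 and 83.6% in replicate 2.

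The pore codon that is edited in Gria2 lies 23 bases before the end of exon 11 in Gria1, Gria2 and Gria3 and of exon 12 in Gria4. It is shown because the genomic letters are nearly shared between the 4 genes; capitals mark the codon, a glutamine codon in each.
Gria1 pore: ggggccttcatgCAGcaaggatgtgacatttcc
Gria2 pore: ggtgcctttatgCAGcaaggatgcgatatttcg
Gria3 pore: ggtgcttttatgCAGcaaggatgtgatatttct
Gria4 pore: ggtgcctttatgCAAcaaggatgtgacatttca

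These windows lie at chr11:57243082-57243114, chr3:80706893-80706925, chrX:41610253-41610285 and chr9:4464119-4464151. The tables count reads per gene and transcript, so whether Gria2 carried the edited base was not measured here. The genes for the editing enzymes were present in both libraries. Adar, an enzyme with many editing targets, had 20.8 TPM in replicate 1 and 17.9 in replicate 2, Adarb2, with no known editing activity, 14.6 and 12.5, and Adarb1, the enzyme that edits the Gria2 pore codon, 10.84 and 9.68. Adar (adjusted p = 8.15e-06) and Adarb2 (adjusted p = 0.00225) were called higher in replicate 1 by an exact binomial test of the counts of these libraries with Benjamini-Hochberg adjustment, with log2 ratios of 0.22 each. This direction was called in 5.29% of all genes tested, and the test covers counting error only.

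Kainate transcripts were also of several forms. Grik1-202, which has an extra exon of 87 bases near its 3′ end, had 5.88 and 6.47 TPM, or 51.7% ± 4.17 of Grik1. Grik1-201, without that exon, had 4.03 and 3.04 TPM, or 29.6% ± 5.52, and Grik1-203, with another last exon of 449 bases, 2.14 and 2.33 TPM, or 18.7% ± 1.34 (SD, n = 2). Grik1-202 was the highest of the 3 in both libraries, while the deposited interval of Grik1-202 overlapped that of Grik1-201 in replicate 1. In Grik2, transcript ENSMUST00000105487 of 4800 bases held 81.9% ± 0.184, ENSMUST00000147808 6.79% ± 0.113 and ENSMUST00000105483 4.94% ± 0.643 (SD, n = 2). In Grik4, Grik4-201 held 72.2% ± 0.806 and Grik4-202 27.8% ± 0.806 (SD, n = 2). Grik3 and Grik5 each had 1 transcript in the tables.

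Agreement of the libraries was close for most subunits. A two-sided exact binomial test of the counts of these 2 libraries called 2 of the 9 genes at an adjusted p of 0.05, against 12.1% of 19687 genes tested. This test sets the libraries against counting error, not against the spread between embryos. Gria4 was higher in replicate 1 by 0.16 on the log2 scale (adjusted p = 0.00964, exact binomial test with Benjamini-Hochberg adjustment), a direction called in 5.29% of genes. Its transcripts did not all share this direction. Gria4-203 (16.6 and 14.1 TPM) and flop Gria4-201 (2.73 and 1.38) were higher in replicate 1, and flip Gria4-202 (6.56 and 7.03) was lower. The intervals of each transcript overlapped between the libraries. Grik2 was lower in replicate 1, with a log2 ratio of -0.14 (adjusted p = 0.0280, same exact test), a direction called in 6.85% of genes. Grik4 had a log2 ratio of 0.21 that did not pass (adjusted p = 0.0821, same exact test), with 580 counts in replicate 1 and 582 in replicate 2.

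The other 6 genes had log2 ratios between -0.05 and 0.02. The median absolute log2 ratio was 0.035 over the 9 genes and 0.110 over all genes tested. These medians are not matched for counts, because the genes tested include genes with far fewer counts than any subunit. They therefore cannot show whether the subunits agreed more closely than other genes of similar counts. Deposited TPM intervals were disjoint for 1 subunit, Gria4, against 9.27% of genes with a mean of 1 TPM or more. No subunit differed 2-fold on the TPM + 1 scale, against 1.47% of those genes.

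Cell markers that moved between the libraries stand beside these differences. The 4 choroid plexus markers, led by Ttr, summed to 566 TPM in replicate 1 and 1097 in replicate 2, and all 4 were called by the binomial test. The 5 sensory ganglion markers summed to 94.7 and 122.3 TPM with 3 called, the 6 postmitotic neuron markers to 3217 and 3097 with 4 called, and the 6 progenitor markers to 2602 and 2852 with all 6 called, where 12.1% of all genes tested were called. The progenitor calls went both ways, Hes5, Nes and Mki67 being higher in replicate 1 and Fabp7, Vim and Sox2 lower, and the sum followed Fabp7 at 1787 and 2042 TPM. Among neuron markers Tubb3, Stmn2 and Dcx were higher in replicate 1 and Map2 was lower. The 5 oligodendrocyte precursor markers summed to 44.8 and 37.6 TPM with 1 called, and the 5 astrocyte markers to 185.2 and 200.6 with 2 called, Gfap being at 0.10 and 0.14 TPM. All 7 hindbrain markers reached 1 TPM in both libraries, with 3 called, Hoxb5, Hoxa5 and Hoxb2, each lower in replicate 1. Of 8 forebrain markers 2 reached it, Neurod6 at 50.9 and 65.0 TPM and Dlx5 at 1.56 and 1.04. Neurod6 was the 1 forebrain marker called, also lower in replicate 1. The part of all these markers in the Gria4 and Grik2 differences was not tested.

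Genes for proteins that work with the subunits were measured from lists. Of 14 AMPA auxiliary genes 13 reached 1 TPM in both libraries, the share over protein-coding genes being 62.2%, and their median level was 6.33 TPM. Cnih2, a cornichon that slows AMPA receptor closing, was the highest, at 277.6 TPM in replicate 1 and 275.2 in replicate 2, above Gria2 itself. Cacng4, a transmembrane regulatory protein of AMPA receptors, had 40.7 and 40.6, and Cpt1c, which acts in AMPA receptor trafficking, 37.3 and 37.1. Cacng2, the founding member of the regulatory proteins, had 8.73 and 8.54 TPM. Cacng8 was the lowest of the 13 at 2.42 and 2.33, and Shisa8 fell on either side of the limit at 0.85 and 1.27. Gsg1l, at 5.80 and 7.13 TPM, and Cacng5, at 3.80 and 4.67, were the 2 of the 14 genes called between the libraries, both lower in replicate 1, against 12.1% of all genes called in either direction and 6.85% in this one. For kainate receptors, Neto2 had 32.8 and 32.7 TPM and Neto1 2.37 and 2.33.

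Receptor assembly and scaffold genes reached 1 TPM in all 14 cases, with a median of 15.2 TPM. The binomial test called 3 of them between the libraries, against 12.1% of all genes tested. Olfm2 and Cask were higher in replicate 1 and Nptx1 was lower. Olfm2, a secreted protein found in AMPA receptor complexes, had 116.8 and 106.1 TPM, Nsf, an ATPase that binds the Gria2 protein, 102.6 and 102.3, and Pick1, which binds the tails of AMPA subunits, 74.6 and 68.8. Dlg4, the postsynaptic scaffold PSD-95, had 21.9 and 19.4 TPM. Nptx2, a pentraxin that clusters AMPA receptors, was the lowest at 2.21 and 1.94. Cnih2 and most of these genes are also expressed outside excitatory synapses, and the cells they came from are not known from bulk RNA.

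The median level of the 9 AMPA and kainate genes was 11.9 TPM, against 3.42 TPM for 8 NMDA and delta receptor subunits, their relatives, of which 6 reached 1 TPM in both libraries. Grin2b had 20.7 TPM in replicate 1 and 21.6 in replicate 2, Grin1, the obligatory NMDA subunit, 20.3 and 18.2, and Grin3a, a subunit that lowers calcium entry through NMDA receptors, 8.72 and 9.31. Grin2d was the lowest of the 6 at 1.43 and 1.60, and Grin3b at 0.49 and 0.53 and Grin2c at 0.17 and 0.18 stayed below 1 TPM. Among these 8 genes and the 9 AMPA and kainate genes, Gria2 was the highest.

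**Figure D5:**
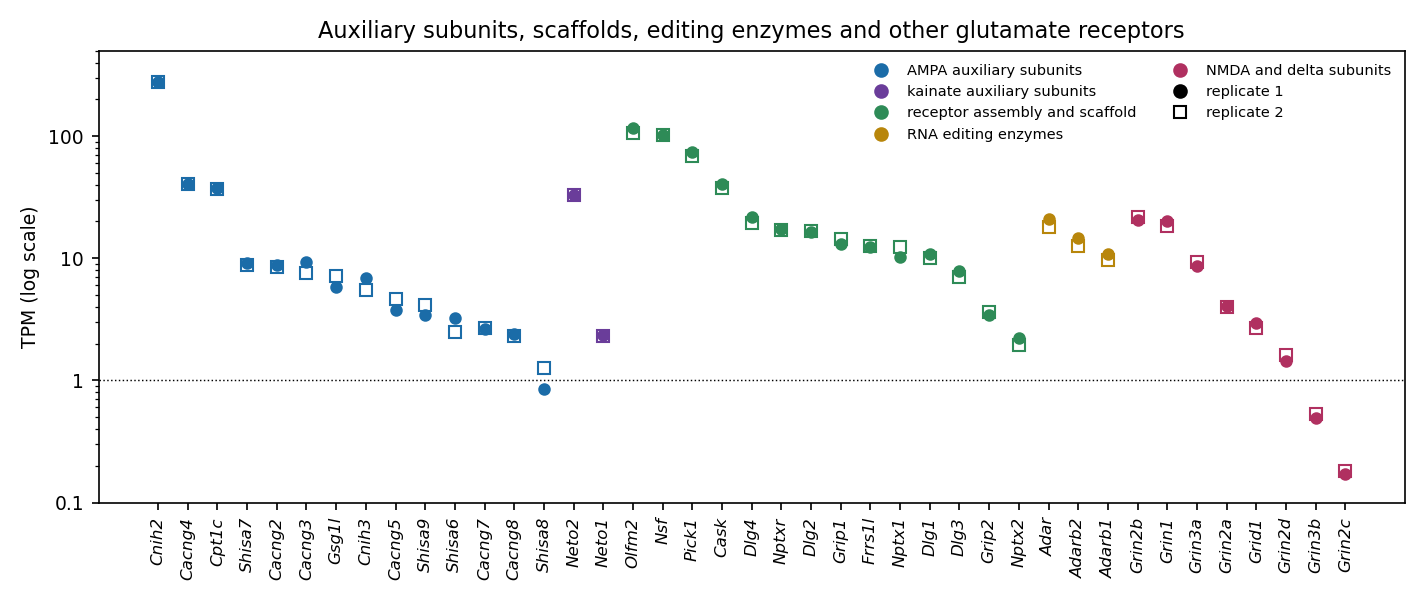
TPM (log axis) of AMPA and kainate auxiliary subunits, assembly and scaffold genes, editing enzymes and NMDA and delta subunits, with filled circles for replicate 1 and open squares for replicate 2; the dotted line is 1 TPM. Cnih2 is the highest gene shown, and Shisa8, Grin3b and Grin2c are the genes with a library below the line.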

How the data were processed

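The 2 libraries held 33080194 and 38756411 estimated counts in replicates 1 and 2, of which 2.31% and 2.54% fell on rows that are not Ensembl genes. Expected counts, TPM and FPKM per gene and transcript were deposited by the authors, made from transcriptome alignments on mm10 with GENCODE M4, according to the deposited notes. No source used here names the aligner, the counter or the strand setting. The authors also deposited a posterior mean TPM, the percent of a gene's TPM per transcript, and interval bounds of TPM of unstated level (handled as a score). These intervals surround the posterior mean and cover estimation error only. The binomial test covers counting error only, since it holds no term for the spread between replicates. Duplicate reads of a molecule also cannot be set apart without identifiers.

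Names, positions, transcript classes and sequences came from GENCODE M21 on GRCm38, the build of mm10, by identifier without version; 42462 of 43346 Ensembl genes matched. The deposited lengths of Gria4-202, Grik1-201, Grik1-202 and Grik5-201 differed from M21. A transcript was called flip or flop from its 115-base exon, translated with Biopython 1.88. The 9 genes overlapped 13 annotated genes, none on the opposite strand, and 8 of the 9 had whole estimated counts (within 0.005) in both libraries.

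Expected counts were rounded and scaled with TMM in edgeR 4.0.16 (R 4.3.3). Genes whose counts summed to 10 or more entered the exact binomial test (SciPy 1.17.1). The test was also run on simulated counts with counting error alone, which cannot show how it treats spread between replicates. A quasi-likelihood test was not possible within a single group. DESeq2 1.42.0 size factors, other levels and each library alone were alternatives. Transcripts at 5% or more of a gene in either library were named. So were, of each list, the 3 highest genes, the lowest at 1 TPM or more and those below 1 TPM. Cacng2, Dlg4, Gsg1l, Cacng5, Cask and Nptx1 were added after their values were seen. A member of the NMDA and delta list is not reported here. The members and lists were chosen with earlier results of these data known.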

Additional observations from a re-analysis of the deposited data

How the results depend on the processing

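The number of subunits at 1 TPM or more was 9 with posterior means, FPKM, a limit of 0.5 TPM and each library alone, and 8 at 5 TPM. With protein-coding transcripts alone (Grik2 kept whole) the AMPA sum lay 0.87 above the kainate sum on the log2 scale, and the Gria2 share of the AMPA sum was 41.5%, since most Gria2 TPM is then left out. That share was 63.8% by posterior means and 64.2% by expected counts. By CPM of expected counts, low-affinity kainate genes lay 1.41 above high-affinity genes on the log2 scale. By expected counts the flip share was 62.7% in Gria2 and 88.4% in Gria3, since the paired transcripts differ in length. Counting Gria3-208 as flop, chosen after seeing the data, gave 74.9%. Subunits called between the libraries numbered 2 under each scaling and filter tried, 1 by disjoint intervals and 0 by a 2-fold difference. The AMPA over kainate and the low-affinity over high-affinity differences stayed above 0 under the alternatives tried. Shares and counts have no sign to change, and several of them moved as given above. The order of Gria1 and Gria4 did turn: Gria4 had 24.2 and Gria1 22.4 TPM by gene, while full-length coding transcripts gave 8.85 for Gria4 and 19.8 for Gria1. With each library alone, the AMPA over kainate difference ran from 1.64 to 1.67, the low-affinity over high-affinity difference from 1.19 to 1.33, the Gria2 share of the AMPA sum from 64.5% to 64.6%, and the Gria2 flip share from 80.7% to 82.2%. No paired analysis was possible because the libraries form 1 group. The flop forms of Gria3 and Gria4 had 92.1 and 115.9 counts and 302 and 180 counts in replicates 1 and 2. Whether depth limits their transcript split was not tested.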
